A study of Mus musculus with 16 samples.

Results

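Lysosomal gene expression was examined in primary mouse hepatocytes through 50 genes of the lysosome, the vacuolar ATPase (V-ATPase) and the TFEB family of transcription factors. The genes were taken by symbol from a list and make up 50 of the 55450 genes in the count table. The list holds 8 subunits of the V0 sector and 8 of the V1 sector of the V-ATPase, 2 accessory subunits, 10 cathepsins and other proteases, 7 glycosidases, 5 lipid enzymes and sphingolipid activators, 7 proteins of the membrane, sterol transport, ion channels and sorting, and 3 transcription factors.

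The study treated cultured hepatocytes of wild-type mice overnight, and its methods describe the mice as C57BL/6J males of 8 to 12 weeks. There were 4 groups of 4 libraries, with replicate letters A to D: untreated, 10 mM sodium itaconate (itaconate), a chemically defined lipid mixture diluted 1:10 (lipid), and both agents together (lipid + itaconate). The mixture carries arachidonic, linoleic, myristic, oleic, palmitic and stearic acids with cholesterol, and itaconate is a metabolite that macrophages make from the citric acid cycle. RNA was sequenced in bulk from stranded mRNA libraries, and the comparisons address how hepatocytes respond to lipid, to itaconate, and to itaconate when lipid is present. Whether the letters stand for separate mice or separate cultures is not stated, so the p-values measure the spread between these libraries.

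Lysosomes break down material from endocytosis and autophagy with acid hydrolases. The V-ATPase acidifies them: its V1 sector hydrolyses ATP on the cytosolic side, and its membrane-embedded V0 sector carries the protons. TFEB, TFE3 and MITF bind the E-box CACGTG in promoters of lysosomal genes, and mTORC1, recruited to the lysosome by Rag GTPases, holds them in the cytosol when nutrients are plentiful. In hepatocytes, lysosomal acid lipase (Lipa) releases cholesterol and fatty acids from lipoproteins and lipid droplets, and Npc2 and Npc1 pass the cholesterol out.

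Library totals ran from 22346049 to 35512004 expected counts with a median of 27719372. Values below are CPM, counts divided by the library total and scaled by TMM factors, and are always listed for libraries A, B, C and D in that order. Tests were edgeR quasi-likelihood tests over 11675 genes with the replicate letter as a block, and a gene is called changed at a Benjamini-Hochberg adjusted p under 0.05. All 50 genes passed the filter of a mean of 1 CPM over the 16 libraries. Fold changes are given on the log2 scale as estimate ± standard error, and each group mean has n = 4.

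The labelled cell type was checked against its markers. The 7 hepatocyte markers had mean levels from 186 CPM to 33508 CPM (Alb, albumin). Macrophage markers other than Cd68 were low, with a sum of 96.3 to 113 CPM in the untreated libraries for the other 13 genes, and 3 of all 14 had a mean under 1 CPM. Endothelial markers summed to at most 22.6 CPM and stellate markers to at most 24.9 CPM. Of the 7 stellate markers 6 had a mean under 1 CPM. Cholangiocyte markers summed to 336 to 1171 CPM, led by Spp1 with a mean of 529.9 CPM. Of these 5 markers 3 had a mean under 1 CPM, so the sum rests on Spp1 and Sox9. In bulk RNA, fewer cells of a type and less RNA per cell cannot be told apart.

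Per exon length, the most abundant of the 50 genes in untreated hepatocytes were the proteases Ctsl at 669 ± 37.7, Ctsd at 637 ± 37.1 and Ctsz at 629 ± 40.5 TPM (the same counts per exon length, scaled to one sum in every library, mean ± SD). Cathepsin L and cathepsin Z are cysteine proteases and cathepsin D an aspartic protease. Each of these differed from its neighbour in this order by less than their SDs. Lamp1, a heavily glycosylated protein of the lysosomal membrane, followed at 545 ± 41.1 TPM, and Lamp2, its close relative, was at 74.2 ± 3.54 TPM. In CPM the gap was smaller, at 566 for Lamp1 and 275 for Lamp2. The exon lengths used were 2675 and 9552 bases, the merged length of all annotated exons of a gene. That length can exceed the length of the transcripts present, so levels per length are approximate between genes. Psap, the precursor of the saposins that help sphingolipid hydrolases, was at 457 ± 37.9 TPM.

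**Figure D1:**
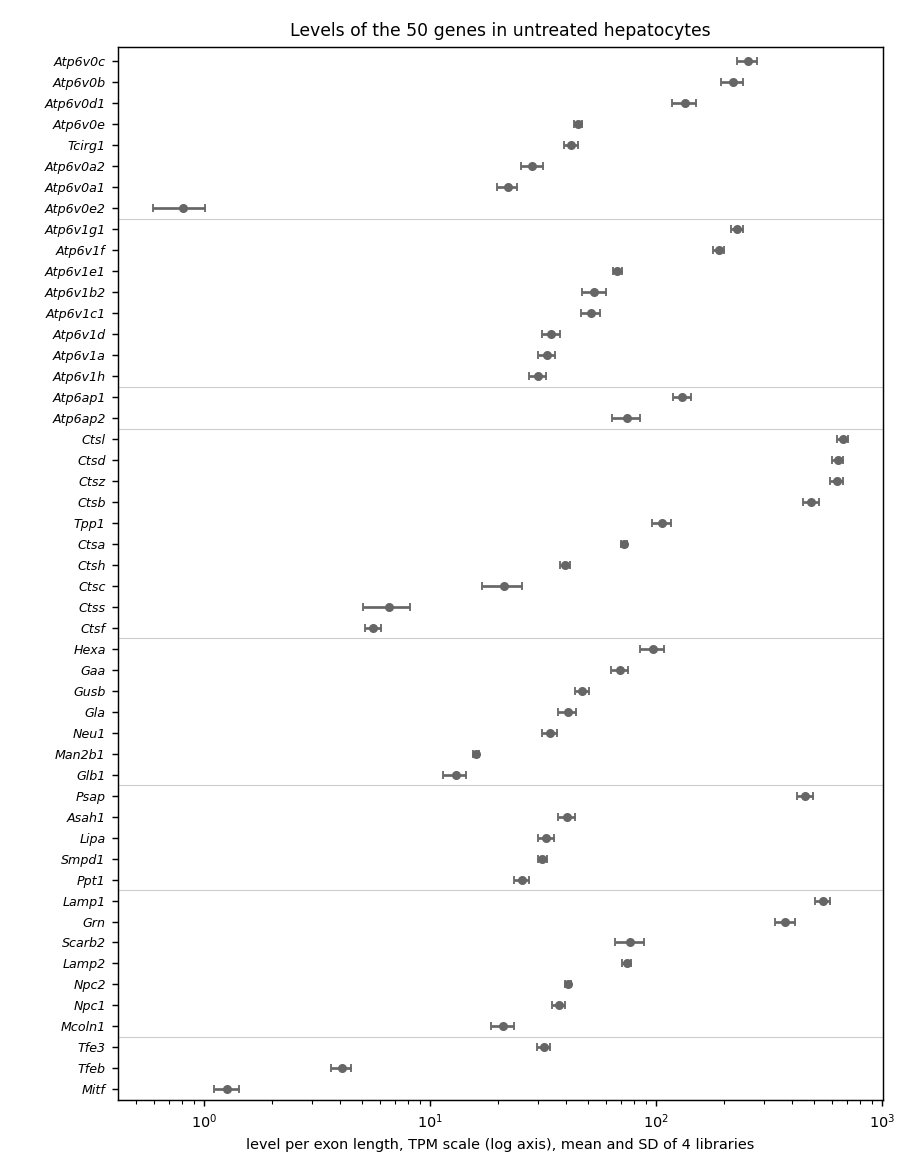
Level of each of the 50 genes in untreated hepatocytes, per exon length on the TPM scale (log axis); points are means and bars the SD of 4 libraries, and lines separate the roles. Ctsl, Ctsd and Ctsz lie highest at over 600 TPM, and Mitf and Atp6v0e2 lowest at about 1 TPM.

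Within the V-ATPase the subunits did not stand at one level per exon length. Atp6v0c, which forms most of the proton-carrying ring, was at 254 ± 25.0 TPM, Atp6v0b, another ring subunit, at 218 ± 24.5 TPM, and the V1 subunit Atp6v1g1 at 228 ± 13.9 TPM. The catalytic subunit Atp6v1a was at 32.8 ± 2.71 TPM. In CPM, Atp6v1a was at 76.9 and Atp6v1g1 at 100.4, with exon lengths of 6044 and 1135 bases. All 3 a subunits, which set where the pump sits, were present: Tcirg1 (a3) at 42.1 ± 3.02 TPM, Atp6v0a2 at 28.3 ± 3.25 TPM and Atp6v0a1 at 22.1 ± 2.25 TPM. Tcirg1 made up 45.6% ± 4.02 (SD) of the per-length a-subunit transcripts in untreated cells. In CPM, Tcirg1 (75.4 ± 7.61, SD) and Atp6v0a2 (73.9 ± 6.55) were near each other. Of the e subunits, Atp6v0e made up 98.3% ± 0.400 and Atp6v0e2 the remaining 1.74%. All 7 subunits known as restricted to other tissues (Atp6v0a4, Atp6v0d2, Atp6v1b1, Atp6v1c2, Atp6v1e2, Atp6v1g2 and Atp6v1g3) fell under the filter of 1 CPM.

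Tfe3 (ENSMUSG00000000134.17, chrX:7762560-7775202, plus strand) was the leading transcript of the TFEB family. It made up 85.7% ± 1.08 (SD) of the per-length transcripts of the 3 factors in untreated cells, against 10.9% ± 0.824 for Tfeb (ENSMUSG00000023990.18, chr17:47737030-47792419, plus strand) and 3.42% ± 0.561 for Mitf (ENSMUSG00000035158.15, chr6:97807052-98021349, plus strand). Across the treated libraries Tfe3 held 83.4% to 86.7%.

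With lipid, 25 of the 50 genes were called changed against untreated cells, 9 higher and 16 lower. Of all 11675 genes 47.5% were called in this comparison, 23.8% higher and 23.7% lower, so 25 of 50 is near the background. The median over the 50 genes was -0.05 on the log2 scale, against 0.0047 over all genes. By role, all 4 called glycosidases were higher, whereas all 4 called proteins of the membrane and sorting group, both accessory subunits and 4 of the 5 called V0 subunits were lower. The other roles with more than 1 call were mixed: 2 V1 subunits were higher and 1 lower, 1 protease was higher and 3 lower, and 1 lipid enzyme was higher and 1 lower. Differences between roles were not tested.

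In cells that had itaconate, lipid gave 23 called genes, 12 higher and 11 lower. The background was 47.0%, with 23.5% of genes higher and 23.5% lower. This comparison uses other libraries than the first, although both come from one model. Of the 50 genes, 42 (84.0%) had the same sign in both, and over all genes 84.7% did. Called in both were 18 genes, which is 72.0% of the first list and 78.3% of the second, and all 18 had the same sign. Over all genes these shares were 75.8% and 76.7%, and 4203 of the 4206 genes called in both had the same sign. The overlap of the 50 genes is thus near the background.

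**Figure D2:**
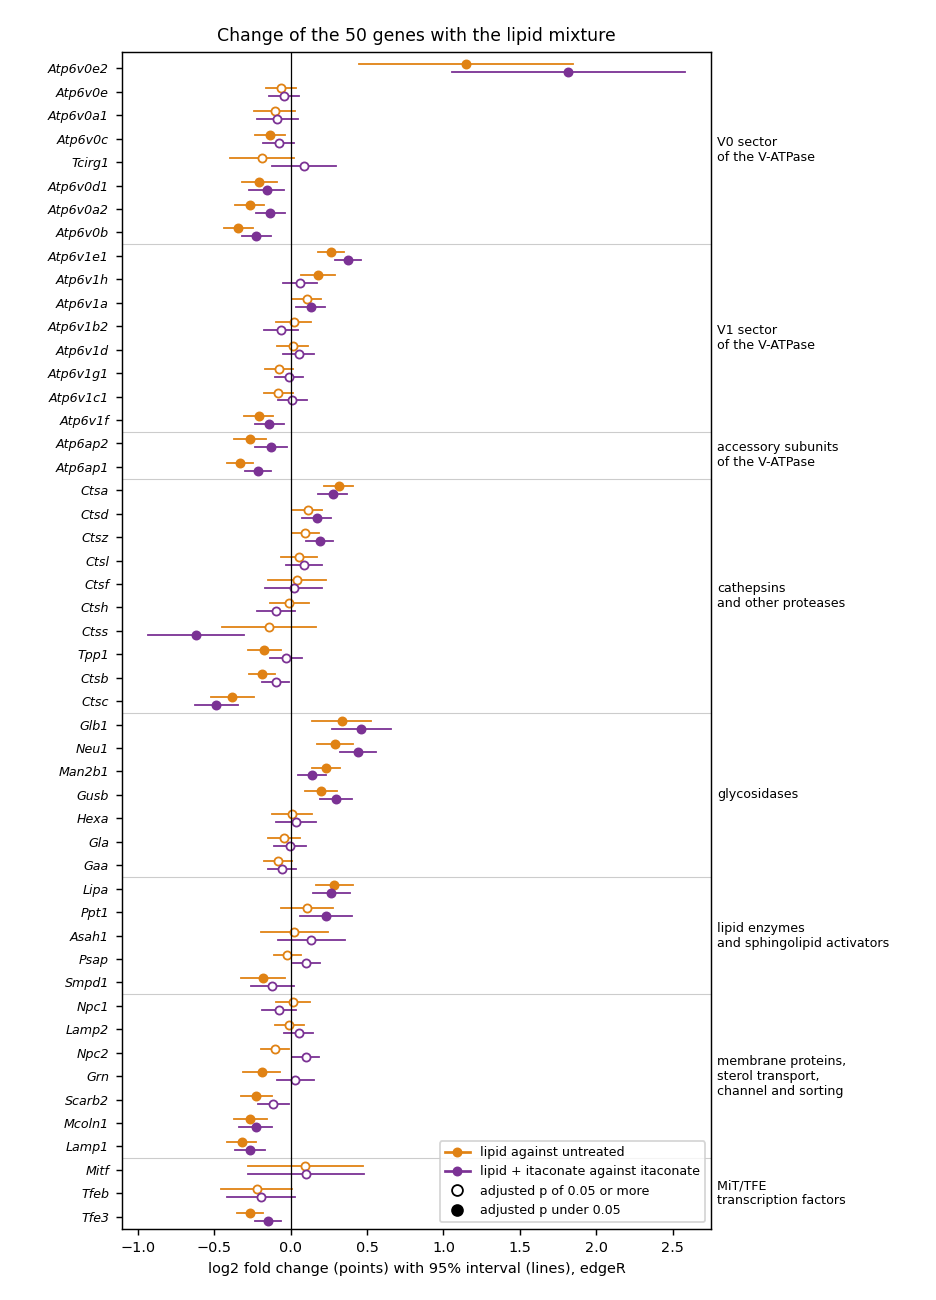
Log2 fold change of each gene with lipid, in cells without itaconate (orange) and with itaconate (purple); lines are 95% intervals and filled points have an adjusted p under 0.05. Lipa and the 4 called glycosidases lie to the right, and Lamp1, Mcoln1, the accessory subunits and most V0 subunits to the left.

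Among the V0 subunits, Atp6v0b had values of 165, 195, 179 and 155 CPM in the untreated libraries, 172, 196, 173 and 177 with itaconate, 136, 147, 129 and 135 with lipid and 153, 163, 148 and 150.2 with both. Every lipid library lay below every untreated library, and every library with both agents below every itaconate library. The log2 fold change with lipid was -0.34 ± 0.04 (adjusted p = 1.9e-05) without and -0.22 ± 0.04 (adjusted p = 0.00078) with itaconate. Atp6v0d1, the stalk subunit that joins the ring to V1, also fell in both settings, by -0.20 and -0.16 on the log2 scale. Its call with itaconate present was kept in 8 of 15 other settings. Atp6v0c changed by -0.14 ± 0.05 with lipid alone (adjusted p = 0.026), and the call was kept in 10 of 15 other settings.

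The a subunits did not move as one. Atp6v0a2 was at 65.3, 73.4, 76.1 and 80.9 CPM in the untreated libraries, 64.2, 71.3, 70.5 and 75.4 with itaconate, 59.3, 58.3, 62.4 and 65.2 with lipid and 61.7, 59.3, 68.7 and 66.8 with both. All 4 lipid libraries lay below the untreated ones, and with itaconate present the groups overlapped although each letter was lower. The log2 fold changes were -0.27 ± 0.05 (adjusted p = 0.00021) and -0.13 ± 0.05 (adjusted p = 0.026). Tcirg1 was at 86.2, 73.2, 68.4 and 73.9 CPM in the untreated libraries, 70.8, 51.0, 53.2 and 59.1 with itaconate, 69.5, 65.3, 62.5 and 67.1 with lipid and 56.0, 51.0, 73.8 and 67.0 with both. Its lipid and untreated libraries overlapped, and neither lipid comparison was called, at -0.19 ± 0.10 and 0.09 ± 0.10. Atp6v0a1 was at 51.9, 62.6, 55.7 and 54.4 CPM in the untreated libraries, 47.2, 50.9, 44.7 and 51.9 with itaconate, 52.0, 56.2, 48.0 and 52.8 with lipid and 42.1, 42.8, 48.1 and 49.9 with both, again with overlapping groups and no call for lipid (-0.10 ± 0.06 and -0.09 ± 0.06).

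The e subunits differed from each other. Atp6v0e was at 64.6, 66.0, 65.7 and 63.7 CPM in the untreated libraries, 60.7, 64.8, 66.5 and 71.7 with itaconate, 62.4, 62.7, 59.8 and 64.2 with lipid and 62.3, 64.3, 65.4 and 63.7 with both and was called in neither comparison. Atp6v0e2, a minor paralogue, was at 0.515, 0.737, 0.950 and 0.749 CPM in the untreated libraries, 0.653, 0.148, 0.226 and 0.576 with itaconate, 1.91, 1.99, 1.3 and 1.49 with lipid and 1.17, 2.12, 1.39 and 1.24 with both. All lipid-treated libraries lay above all libraries without lipid, and the log2 fold changes of 1.15 ± 0.33 (adjusted p = 0.0096) and 1.82 ± 0.36 (adjusted p = 0.00079) exceeded those of the other 49 genes. It passed the filter only through the lipid groups, since its mean was 0.738 ± 0.177 CPM in untreated cells, so its call with lipid is conditioned on that filter.

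In the V1 sector 2 of 8 subunits rose and 1 fell in each lipid comparison. Atp6v1e1, a subunit of the peripheral stalk, was at 111, 113, 106 and 101 CPM in the untreated libraries, 104, 109.8, 98.0 and 98.0 with itaconate, 139, 138, 116 and 125 with lipid and 135, 137, 131 and 127 with both. The 8 libraries with lipid all lay above the 8 without, and its log2 fold change was 0.26 ± 0.04 (adjusted p = 7.7e-05) without and 0.37 ± 0.04 (adjusted p = 3.8e-06) with itaconate. Atp6v1f fell, by -0.21 and -0.14. The regulatory subunit Atp6v1h rose by 0.18 with lipid alone and Atp6v1a by 0.13 with itaconate present, while Atp6v1b2, Atp6v1c1, Atp6v1d and Atp6v1g1 were called in neither.

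Both accessory subunits, which assist assembly of the pump, fell. Atp6ap1 was at 143, 148, 169 and 151 CPM in the untreated libraries, 141, 148, 153 and 148 with itaconate, 111, 125, 127 and 124 with lipid and 125, 126, 129 and 129 with both, with every lipid library below every untreated one and the same order in the presence of itaconate. It had the smallest p of the 50 genes with lipid, at -0.33 ± 0.04 on the log2 scale (adjusted p = 9.5e-06), and -0.21 ± 0.04 with itaconate present (adjusted p = 0.00048). Atp6ap2, the prorenin receptor, changed by -0.27 and -0.13, and the call with itaconate present was kept in 6 of 15 other settings.

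Proteases went both ways. Ctsa, which protects beta-galactosidase and neuraminidase in a complex, was at 134, 131, 136 and 127 CPM in the untreated libraries, 123, 128, 124 and 127 with itaconate, 176, 170.5, 149.7 and 161 with lipid and 151, 153, 150.1 and 153 with both. The lipid libraries lay above those without lipid, and the log2 fold changes were 0.31 ± 0.04 (adjusted p = 3.7e-05) and 0.27 ± 0.04 (adjusted p = 0.00014). Ctsd was at 565, 586, 568 and 609 CPM in the untreated libraries, 546, 585, 504 and 574 with itaconate, 635, 687, 566 and 632 with lipid and 605, 629.8, 615 and 632 with both, and its rise of 0.17 ± 0.05 was called only with itaconate present (adjusted p = 0.0059, against 0.051 without), a difference between settings that the interaction test did not call. Ctsz likewise changed by 0.19 with itaconate present.

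Ctsc, dipeptidyl peptidase I, which activates serine proteases of immune cells, was at 61.0, 52.6, 39.4 and 39.1 CPM in the untreated libraries, 64.6, 57.1, 41.6 and 43.4 with itaconate, 45.1, 41.5, 29.1 and 31.4 with lipid and 42.3, 36.8, 36.3 and 30.3 with both. Libraries A and B were higher than C and D in every group, so the groups overlapped, but each letter was lower with lipid. Its log2 fold change was -0.38 ± 0.07 (adjusted p = 0.00024) without and -0.49 ± 0.07 (adjusted p = 2.9e-05) with itaconate. Ctss, a cathepsin of antigen-presenting cells, was at 2.48, 4.00, 4.09 and 3.25 CPM in the untreated libraries, 3.23, 3.58, 3.88 and 3.52 with itaconate, 2.76, 2.90, 3.36 and 3.44 with lipid and 2.05, 2.77, 2.00 and 2.44 with both. Only in the comparison with itaconate present was it called, at -0.62 ± 0.15 (adjusted p = 0.0029), where all libraries with both agents lay below all with itaconate. Ctsb and Tpp1 fell by -0.19 and -0.17 with lipid alone. Ctsl, the most abundant of these transcripts, was at 1709.9, 1577, 1794 and 1663 CPM in the untreated libraries, 1762, 1695, 1791 and 1737 with itaconate, 1832, 1734, 1722 and 1709 with lipid and 2082, 1918, 1733 and 1704 with both and, like Ctsf and Ctsh, was not called.

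Most macrophage markers were also lower with lipid. Of the 14 markers 11 were tested, and with lipid 7 were lower and 1, Cd68, higher, while with itaconate present 10 were lower and Cd68 higher. The sum of the 13 markers other than Cd68 ran from 96.3 to 113 CPM in untreated libraries and from 45.3 to 64.1 CPM with lipid, and from 89.4 to 104 CPM with itaconate and 36.1 to 56.3 CPM with both. None of the 14 was at 0 in all libraries. The part of macrophages in the fall of Ctsc, of Ctss with itaconate present or of Grn with lipid alone was not tested. The cholangiocyte sum, which rests on Spp1 and Sox9, was 600.3 to 1171 CPM in untreated libraries and 336 to 609 CPM with lipid. Of the 7 hepatocyte markers 3 fell with lipid, and with itaconate present 4 fell and 1, Hnf4a, rose (0.21). Beside these marker counts, 23.7% of all genes were lower and 23.8% higher with lipid. With itaconate present 23.5% were lower and 23.5% higher.

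Glycosidases rose where they were called. Neu1, the sialidase, was at 48.8, 52.1, 44.6 and 50.9 CPM in the untreated libraries, 44.4, 51.6, 48.6 and 43.9 with itaconate, 58.5, 63.7, 57.6 and 60.1 with lipid and 58.1, 64.4, 67.8 and 64.9 with both. All libraries with lipid lay above all libraries without it, at log2 fold changes of 0.29 ± 0.06 (adjusted p = 0.00058) and 0.44 ± 0.06 (adjusted p = 1.6e-05). Gusb, beta-glucuronidase, was at 80.8, 89.5, 78.9 and 83.6 CPM in the untreated libraries, 75.6, 76.6, 64.6 and 70.7 with itaconate, 99.0, 97.0, 86.8 and 99.97 with lipid and 92.1, 87.8, 88.4 and 84.1 with both. One lipid library (C) overlapped the untreated range, the groups with itaconate did not overlap, and the changes were 0.20 ± 0.05 (adjusted p = 0.0035) and 0.30 ± 0.05 (adjusted p = 0.0002).

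Glb1, beta-galactosidase, rose by 0.33 and 0.46 on the log2 scale. Its gene body overlaps Tmppe on the same strand, so reads of the pair may be shared, and the same holds for Ctsd and Gm49369. Man2b1, alpha-mannosidase, rose by 0.23 and 0.14. Gla, Hexa and Gaa were called in neither comparison. Products of Ctsa, Glb1 and Neu1 act as one complex in the lysosome, and the 3 genes rose in both lipid comparisons.

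Lipa, which hydrolyses cholesteryl esters and triglycerides, was at 88.2, 79.0, 82.1 and 94.4 CPM in the untreated libraries, 85.9, 78.4, 77.7 and 92.4 with itaconate, 117, 106, 91.1 and 105 with lipid and 107, 106, 90.3 and 98.4 with both. Each letter was higher with lipid, in both settings, and library C was the lowest of the lipid libraries and overlapped the untreated range. The log2 fold change was 0.29 ± 0.06 without itaconate (adjusted p = 0.00085) and 0.27 ± 0.06 with it (adjusted p = 0.0016), a rise of 21.9% and 20.2%. Ppt1, which removes palmitate from proteins, rose by 0.23 with itaconate present. Smpd1, acid sphingomyelinase, fell by -0.18 with lipid alone, and Asah1 and Psap were not called.

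The cholesterol carriers were not called with lipid. Npc1, the membrane protein of the pair, was at 176, 169, 145 and 163 CPM in the untreated libraries, 194, 175, 169 and 162 with itaconate, 163, 158, 165 and 172 with lipid and 175, 164, 152 and 171 with both. Its lipid log2 fold changes were 0.02 (95% interval -0.10 to 0.13) and -0.08 (-0.19 to 0.03). Npc2, the soluble one, was at 90.9, 87.7, 82.6 and 83.4 CPM in the untreated libraries, 80.8, 78.4, 67.9 and 80.7 with itaconate, 81.5, 86.1, 74.8 and 78.7 with lipid and 85.0, 84.9, 75.7 and 84.0 with both, with lipid changes of -0.10 (-0.19 to -0.01) and 0.10 (0.01 to 0.19), neither called.

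Of the 7 genes of the membrane and sorting group 4 fell with lipid. Lamp1 (ENSMUSG00000031447.7, chr8:13159161-13175338, plus strand) was at 546, 531, 592 and 595 CPM in the untreated libraries, 526, 565, 557 and 603 with itaconate, 459.8, 459, 435 and 457 with lipid and 455, 472, 470.5 and 471 with both. No library with lipid reached the lowest library without it, and the log2 fold change was -0.32 ± 0.05 (adjusted p = 3.9e-05) without and -0.27 ± 0.05 (adjusted p = 0.00023) with itaconate. Lamp2 was at 283, 276, 257 and 285 CPM in the untreated libraries, 287, 283, 238 and 272 with itaconate, 283, 283, 254 and 275 with lipid and 277, 278, 281 and 279 with both, with ranges that overlapped between all groups, and its changes of -0.01 (95% interval -0.10 to 0.09) and 0.05 (-0.04 to 0.15) were not called.

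Mcoln1, the calcium channel TRPML1, was at 55.0, 62.3, 69.2 and 59.5 CPM in the untreated libraries, 53.1, 62.6, 62.3 and 58.3 with itaconate, 49.5, 55.9, 49.9 and 49.2 with lipid and 44.0, 52.5, 53.4 and 51.8 with both. Each letter was lower with lipid in both settings, though the highest lipid library (B) lay above the lowest untreated one. The log2 fold changes were -0.26 ± 0.05 (adjusted p = 0.00059) and -0.23 ± 0.05 (adjusted p = 0.0018). Scarb2 (LIMP-2), the receptor that carries glucocerebrosidase to the lysosome, fell by -0.22 and Grn, progranulin, by -0.19 with lipid alone. Their values with itaconate present, -0.11 and 0.03, were not called.

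Of the transcription factors, Tfe3 alone was called with lipid. Its values were 108, 118, 118 and 113 CPM in the untreated libraries, 117, 122, 118 and 117 with itaconate, 92.0, 100.5, 94.3 and 92.7 with lipid and 109, 104, 110.2 and 104 with both. All lipid libraries lay below all untreated ones and all with both agents below all with itaconate, so it fell by -16.9% and -9.74%. On the log2 scale this was -0.27 ± 0.04 (adjusted p = 6.1e-05) and -0.15 ± 0.04 (adjusted p = 0.0063).

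Tfeb was at 8.25, 9.02, 8.47 and 9.92 CPM in the untreated libraries, 8.81, 10.9, 11.4 and 10.2 with itaconate, 7.92, 8.05, 7.58 and 7.02 with lipid and 9.82, 7.67, 8.81 and 9.63 with both. Its lipid libraries lay below the untreated ones, but the change of -0.22 ± 0.11 was not called (adjusted p = 0.1), nor was -0.20 ± 0.10 with itaconate present (adjusted p = 0.14). Mitf was at 3.47, 3.19, 2.45 and 3.07 CPM in the untreated libraries, 2.57, 2.77, 2.37 and 2.71 with itaconate, 3.33, 3.95, 3.12 and 2.60 with lipid and 2.28, 2.31, 3.22 and 3.37 with both, with overlapping groups, and its change of 0.10 had a 95% interval from -0.28 to 0.47, which includes a fall of the size seen for Tfe3.

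**Figure D3:**
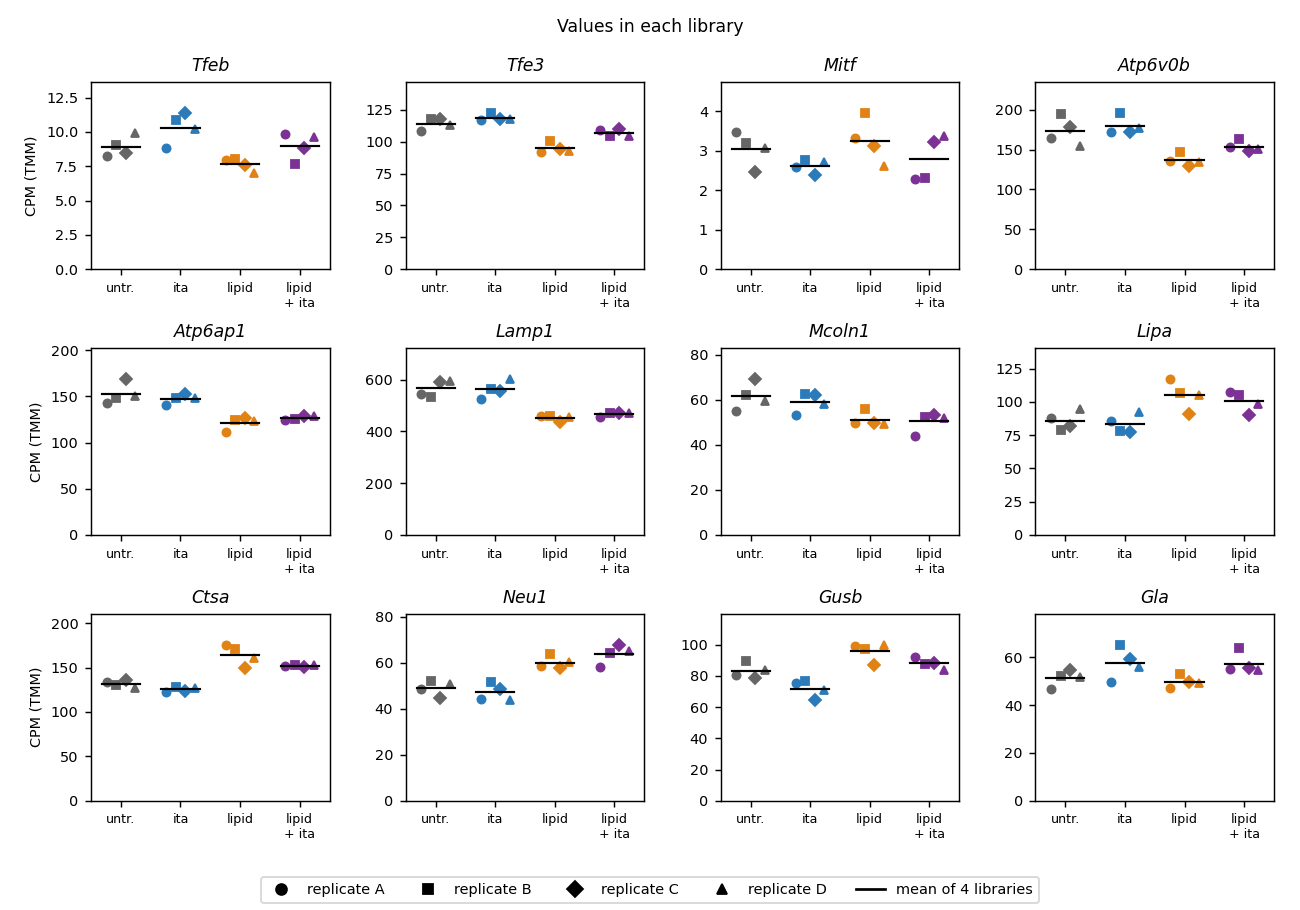
CPM in each library for 12 of the genes, by group, with replicate letters as marker shapes and the group mean as a line; axes start at 0. Tfe3, Atp6v0b, Atp6ap1 and Lamp1 are lower in the lipid groups, Lipa, Ctsa, Neu1 and Gusb higher.

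RefSeq promoter windows (GRCm38.p6, 250 bases before to 50 after the start) were at hand for 41 of the 50 genes. The E-box CACGTG, which reads the same on both strands, lay in 13 of them (31.7%), against 8.09% of 27025 genes. TCACGTGA, which holds the E-box and is also its own reverse complement, lay in 7 (17.1%) against 1.12%. By direction with lipid, windows with CACGTG were 2 of 8 (25.0%) of the genes that were higher, 4 of 14 (28.6%) of those lower and 7 of 19 (36.8%) of those not called. A match is a description of these letters and not a bound site.

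The windows of 5 genes changed by lipid that hold the E-box, and of Gla, which is treated below, are shown because genes that rose and genes that fell carry the same motif. They run 5′ to 3′ on the strand of the gene, with CACGTG in capitals: Ctsa chr2:164833523-164833822 (plus strand) and Glb1 chr9:114400828-114401127 (plus) rose, Atp6v0b chr4:117887280-117887579 (minus), Lamp1 chr8:13158911-13159210 (plus) and Mcoln1 chr8:3500269-3500568 (plus) fell, and Gla chrX:134600956-134601255 (minus) was not called with lipid. Lamp1 has 4 E-boxes, at 61, 45, 28 and 15 bases before the start. Another window of Ctsa, chr2:164832622-164832921, holds 0 E-boxes and is not shown. Atp6v0d1, which fell with lipid and also holds the E-box, is not shown either.
Ctsa: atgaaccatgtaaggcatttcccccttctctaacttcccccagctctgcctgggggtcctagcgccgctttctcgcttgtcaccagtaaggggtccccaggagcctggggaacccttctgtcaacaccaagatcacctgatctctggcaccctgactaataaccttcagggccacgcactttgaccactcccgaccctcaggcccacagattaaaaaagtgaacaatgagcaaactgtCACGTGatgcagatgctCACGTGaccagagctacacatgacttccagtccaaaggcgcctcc
Glb1: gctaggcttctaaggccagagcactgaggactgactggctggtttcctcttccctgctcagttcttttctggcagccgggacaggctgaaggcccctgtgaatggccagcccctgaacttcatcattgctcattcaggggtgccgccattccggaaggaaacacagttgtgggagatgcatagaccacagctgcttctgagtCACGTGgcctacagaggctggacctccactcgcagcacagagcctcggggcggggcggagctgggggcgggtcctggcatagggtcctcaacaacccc
Atp6v0b: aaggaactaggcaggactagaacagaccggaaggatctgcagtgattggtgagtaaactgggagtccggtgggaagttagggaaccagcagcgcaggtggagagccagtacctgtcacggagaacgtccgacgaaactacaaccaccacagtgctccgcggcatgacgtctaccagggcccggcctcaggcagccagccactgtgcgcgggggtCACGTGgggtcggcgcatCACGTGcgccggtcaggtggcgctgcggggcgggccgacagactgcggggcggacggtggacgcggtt
Lamp1: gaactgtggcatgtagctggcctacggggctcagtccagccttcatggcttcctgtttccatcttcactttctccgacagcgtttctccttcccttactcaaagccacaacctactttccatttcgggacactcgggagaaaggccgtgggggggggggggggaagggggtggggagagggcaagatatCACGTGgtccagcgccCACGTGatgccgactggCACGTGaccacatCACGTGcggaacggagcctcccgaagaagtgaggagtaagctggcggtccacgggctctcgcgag
Mcoln1: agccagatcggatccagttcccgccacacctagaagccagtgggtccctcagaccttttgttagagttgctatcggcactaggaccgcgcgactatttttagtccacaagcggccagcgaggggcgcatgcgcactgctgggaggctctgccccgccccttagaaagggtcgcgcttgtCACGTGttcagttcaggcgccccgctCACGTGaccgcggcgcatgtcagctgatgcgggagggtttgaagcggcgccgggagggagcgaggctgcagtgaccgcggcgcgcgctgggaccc
Gla: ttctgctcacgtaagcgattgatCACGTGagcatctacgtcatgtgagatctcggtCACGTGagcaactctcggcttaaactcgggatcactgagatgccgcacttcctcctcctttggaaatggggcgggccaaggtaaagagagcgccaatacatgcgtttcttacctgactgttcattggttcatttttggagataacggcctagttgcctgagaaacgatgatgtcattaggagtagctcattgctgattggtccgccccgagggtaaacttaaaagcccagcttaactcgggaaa

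Itaconate alone changed 3 of the 50 genes against untreated cells, all lower: Tcirg1, Gusb and Npc2. Of all genes 4.91% were called, 1.96% higher and 2.95% lower, so 3 of 50 is near the background. Tcirg1, whose values are given above, was lower in each letter, with the highest itaconate library (A) within the untreated range, at -0.37 ± 0.10 (adjusted p = 0.042). Gusb had all itaconate libraries below all untreated ones, at -0.21 ± 0.05 (adjusted p = 0.022), and so did Npc2, at -0.16 ± 0.04 (adjusted p = 0.036). A fit without the replicate block called 0 of the 50 genes (0.197% of all genes). Leaving out untreated B, untreated C or itaconate C also left 0 of the 50 (2.43%, 2.49% and 1.28% of all genes). Leaving out untreated A, untreated D, itaconate B or itaconate D left 1 of the 50 (2.29%, 2.35%, 3.05% and 2.44%). A fit of these 8 libraries alone called 8 of the 49 genes it tested (16.3%), 6 of them lower, and 16.0% of all genes, so this count too is near its background.

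When lipid was present, itaconate changed 2 genes, both higher: Gla and Tfe3. The background was 2.58%, with 1.32% of genes higher and 1.26% lower. Gla, alpha-galactosidase A, was at 46.9, 52.1, 54.6 and 51.9 CPM in the untreated libraries, 49.8, 65.2, 59.1 and 55.8 with itaconate, 47.0, 53.2, 49.8 and 49.4 with lipid and 54.9, 64.1, 55.3 and 54.6 with both. All libraries with both agents lay above all lipid libraries, with library B far above the other three, at 0.20 ± 0.05 (adjusted p = 0.048), and each letter was also higher with itaconate alone, at 0.16 ± 0.05, which was not called (adjusted p = 0.083).

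Tfe3 had every library with both agents above every lipid library, at 0.18 ± 0.04 (adjusted p = 0.032), and stayed below the untreated mean: it was 114 ± 4.49 CPM in untreated cells, 94.9 ± 3.85 with lipid and 107 ± 3.21 with both. The fall of Tfe3 with lipid alone and this rise use the same 4 lipid libraries, so they are not independent. With itaconate alone its log2 fold change was 0.06, not called. For lipid + itaconate against lipid, a fit without the replicate block called 0 of the 50 genes (0.0771% of all genes). So did a fit of these 8 libraries alone (0.111%). Leaving out the lipid library A, C or D also gave 0 of the 50 (0.831%, 1.24% and 0.728% of all genes). The same held without the A or D library of the group with both agents (0.505% and 1.34%). Leaving out the B library of the lipid group or of the group with both agents gave 1 call each (1.63% and 1.15%). Leaving out the C library of the group with both agents gave 4 of the 50 (8.00%), near its background of 7.61%.

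The itaconate comparisons use different libraries. Of the 50 genes 30 (60.0%) had the same sign in both, against 65.8% of all genes, and 0 were called in both. Atp6v0a1 was at -0.21 ± 0.06 and -0.19 ± 0.06, lower in 4 of 4 and 3 of 4 letters and past the threshold in neither (adjusted p = 0.072 and 0.13). Tfeb was at 0.21 ± 0.11 and 0.24 ± 0.11, higher in 4 of 4 and 3 of 4 letters, with adjusted p = 0.27 and 0.27. Mitf, at -0.22 and -0.21, and Lipa, at -0.04 and -0.06, were not called either.

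**Figure D4:**
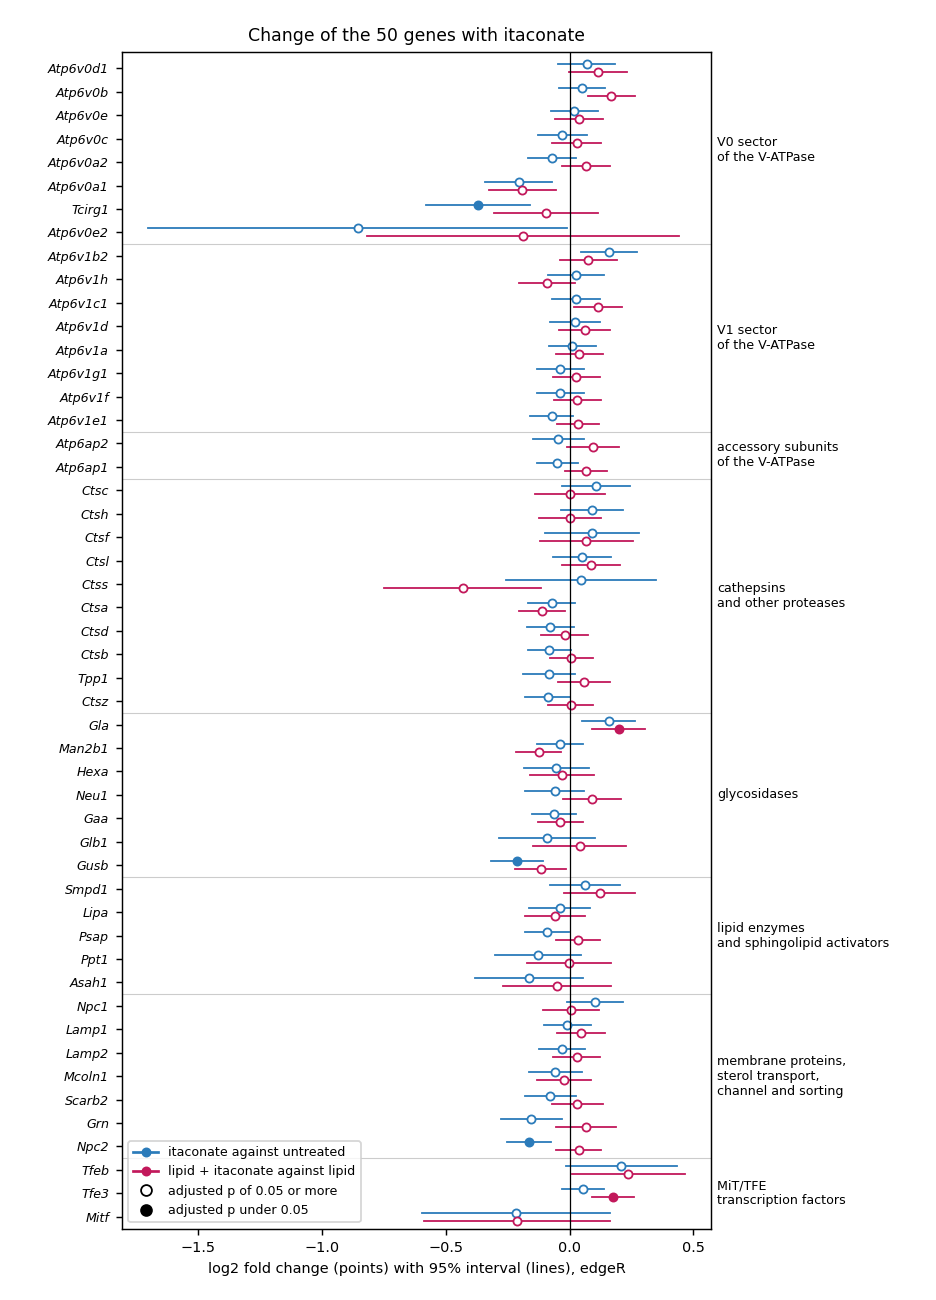
Log2 fold change of each gene with itaconate, in cells without lipid (blue) and with lipid (pink); lines are 95% intervals and filled points have an adjusted p under 0.05. Filled points are few: Tcirg1, Gusb and Npc2 on the left and Gla and Tfe3 on the right.

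Whether the change with lipid differed between cells with and without itaconate was tested as an interaction. By edgeR 0 of the 50 genes were called, 5 had an unadjusted p under 0.05, and DESeq2 and limma-trend also called 0. Of all genes 0.00857% were called, and 8.60% had an unadjusted p under 0.05. The 5 were Ctss (-0.48), Psap (0.13), Npc2 (0.20), Grn (0.22) and Tfe3 (0.12 on the log2 scale). Npc2 had the smallest p of these, and its adjusted p was 0.34.

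Other lysosome and autophagy genes, from a list of 92 of which 82 were tested, moved with lipid on both sides as well. With lipid 52 were called (63.4%, against 47.5% of all genes), 29 higher and 23 lower, and with itaconate present 44 (53.7%, against 47.0%), 30 higher and 14 lower. Neither share was tested against that of all genes. Of the 25 hydrolases outside the 50 genes, 12 rose, 3 fell and 10 were not called. Of the autophagy genes 8 of 14 fell and 3 rose, and of the genes of mTORC1 and Rag control 6 of 16 fell and 3 rose.

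Rragd, a Rag GTPase that takes part in recruiting TFEB and TFE3 to the lysosome, was at 6.32, 7.12, 9.79 and 8.28 CPM in the untreated libraries, 6.89, 5.91, 7.61 and 7.26 with itaconate, 13.1, 15.5, 19.4 and 17.7 with lipid and 12.4, 12.2, 14.3 and 14.4 with both. All libraries with lipid lay above all without, at 1.06 ± 0.09 (adjusted p = 1.9e-07) and 0.95 ± 0.09 (adjusted p = 1e-06). Rragc, its paralogue, fell, by -0.29 and -0.21. Fnip1, which with folliculin activates RagC and RagD, was at 94.4, 98.4, 98.8 and 111 CPM in the untreated libraries, 108, 113, 116 and 116 with itaconate, 69.7, 73.6, 78.6 and 84.5 with lipid and 79.3, 87.4, 83.6 and 86.7 with both, lower in every lipid library than in any without lipid, at -0.39 ± 0.04 and -0.42 ± 0.04.

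Gpnmb, a glycoprotein abundant in lysosomes of macrophages, was at 9.60, 16.0, 14.8 and 21.3 CPM in the untreated libraries, 8.70, 10.7, 11.0 and 16.2 with itaconate, 5.69, 6.51, 5.19 and 8.74 with lipid and 3.99, 4.24, 6.50 and 7.49 with both. Its lipid libraries lay below those without lipid within each setting, at -1.22 ± 0.12 (adjusted p = 1.8e-06) and -1.06 ± 0.13 (adjusted p = 9.1e-06). Cd68, a lysosomal membrane protein used as a macrophage marker, went the other way, at 146, 182, 242 and 215 CPM in the untreated libraries, 125, 159.7, 194 and 183 with itaconate, 207, 252, 299.6 and 290.1 with lipid and 195, 212, 286 and 298 with both, with changes of 0.43 ± 0.05 and 0.58 ± 0.05, both called. The 13 other macrophage markers fell in sum, as given above.

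With itaconate alone 5 of the 82 were called (6.1%, against 4.91% of all genes), 1 higher (Fnip1, 0.17) and 4 lower, of which Scpep1 (-0.27 ± 0.05), Ids (-0.40 ± 0.08) and Cd68 (-0.24 ± 0.05) had the smallest p. Ids, iduronate sulfatase, was at 12.8, 10.5, 10.6 and 13.0 CPM in untreated libraries and 11.0, 8.09, 7.42 and 9.22 CPM with itaconate, lower in each letter with groups that overlapped. When lipid was present 2 were called (2.44%, against 2.58% of all genes), Rragc higher (0.14 ± 0.03) and Galns lower (-0.40 ± 0.10). In the interaction 0 of the 82 were called and 9 had an unadjusted p under 0.05.

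**Figure D5:**
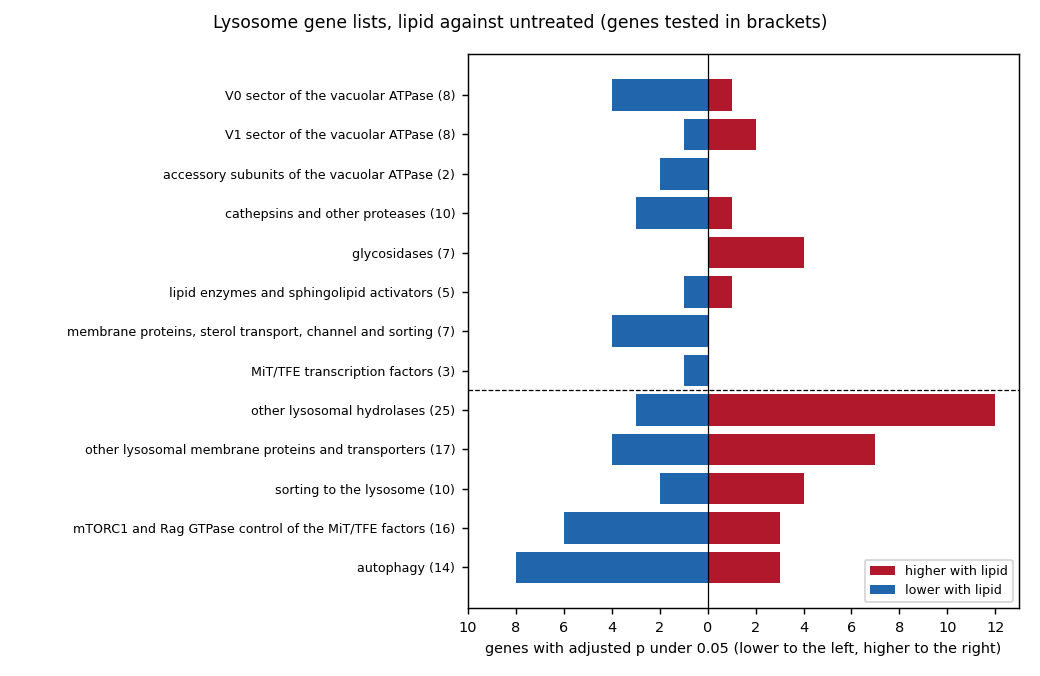
Number of genes called higher (red, to the right) or lower (blue, to the left) with lipid against untreated, for the 8 roles of the 50 genes (above the dashed line) and 5 lists of other lysosome and autophagy genes, with the genes tested in brackets. Glycosidases have calls to the right alone, the membrane group and accessory subunits to the left alone, and each of the 5 other lists has calls on both sides.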

How the data were processed

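RNA of 16 hepatocyte libraries was analysed from a table of expected counts per gene that the authors deposited. Per the submitters' processing notes, reads passed through bcl2fastq 2.20, cutadapt 1.18, STAR 2.7.0f, Picard 2.18.26 and RSEM 1.3.1 on build mm10. RSEM divides reads that match several genes between them, so values of near-identical paralogues are estimates, and 5.41% of values are not whole. Whether counting used strand is not given in the sources used here, so reads of overlapping antisense genes may be included. Gene bodies that overlap a gene on the opposite strand include Ctsa (Pltp and Neurl2), Ctsb (Fdft1), Atp6v1e1 (Slc25a18), Lamp1 (Grtp1) and Atp6v0b (Gm12841). All 55450 rows matched GENCODE release 21 for mouse, from which exon lengths and gene coordinates (GRCm38) came.

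The expected counts were rounded and tested with edgeR 4.0.16 in R 4.3.3 (glmQLFit and glmQLFTest, TMM, replicate letter as a block, all 16 libraries in one model) over the 11675 genes that averaged 1 CPM or more across the libraries. Benjamini-Hochberg adjustment ran over all of these. DESeq2 1.42.0, limma 3.58.1 (limma-trend, prior count 0.5), RLE scaling, filterByExpr, no filter, no replicate block, the 8 libraries of a comparison alone and leaving out each library were alternatives.

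The 24 correlations of same-letter deviations from group means ran from 0.144 to 0.469 and the 72 between letters from -0.436 to 0.178, so the letters, which GEO's labels give, were treated as pairing the libraries.

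The members, gene lists and markers were chosen with earlier results of these data known. Values in every library are given for the transcription factors, the a and e subunits, Lipa, Npc1, Npc2, Mcoln1, Lamp1, Lamp2, Ctsd, Ctsl and Ctss, and for up to 6 called members with the smallest p in each comparison. Genes outside the 50 with values in the report are up to 3 called with the smallest p in each comparison of a list of other lysosome genes, some of them also given for other comparisons, and the examples in the closing section were picked after their values were seen. Promoter windows came from RefSeq.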

Additional observations from a re-analysis of the deposited data

Results flagged for a closer look

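In 8 of 200 groups of 4 libraries (4.0%) 1 library of a member gene stood apart from the other three by Dixon's test, and chance gives about 1 in 20. High libraries were untreated C for Ctsz (376 CPM, the others 341 to 346), untreated A for Man2b1 (54.3, the others 48.0 to 48.6), lipid B for Mcoln1 (55.9, the others 49.2 to 49.9) and lipid + itaconate B for Gla (64.1, the others 54.6 to 55.3). Low libraries were lipid C for Lamp1 (435 CPM, the others 457 to 459.8), lipid + itaconate A for Lamp1 (455, the others 470.5 to 472), lipid + itaconate C for Npc2 (75.7, the others 84.0 to 85.0) and lipid + itaconate A for Mcoln1 (44.0, the others 51.8 to 53.4). Over all genes tested, lipid + itaconate B stood apart from its group. Its chi-square per gene against counting noise was 128, 147 and 106 against A, C and D. Other pairs of that group gave 14.5 to 64.5, and pairs of the other groups 10 to 41.8. Without that library, lipid + itaconate against lipid gave 1 called member (1.15% of all genes). Lipid + itaconate against itaconate then gave 21 (45.3%).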

How the results depend on the processing

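Of the 25 calls with lipid alone and the 23 with itaconate present, 19 and 16 were kept under every alternative run, against 0 of 3 and 0 of 2 calls with itaconate, and no call of a member reversed. Among the lipid calls with itaconate present, Atp6ap2 was kept least, in 6 of 15 alternatives. Atp6v0a2, Atp6v0d1, Atp6v1a and Ppt1 followed at 8 of 15 each. With lipid alone, Smpd1 was kept least, in 8 of 15. In a fit with no replicate block the calls were 0 for itaconate against untreated, 0 for lipid + itaconate against lipid, 20 for lipid against untreated and 16 for lipid + itaconate against itaconate, beside 0.197%, 0.0771%, 35.5% and 34.2% of all genes. For itaconate against untreated (3 calls), filterByExpr gave 1 (3.88% of all genes), the 8 libraries of the comparison alone gave 8 (16.0%), and leaving out 1 library gave 0 to 3 (1.28% to 3.38%). For lipid + itaconate against lipid (2 calls), filterByExpr gave 1 (1.77%), limma-trend 1 (2.42%), the 8 libraries alone 0 (0.111%), and leaving out 1 library 0 to 4 (0.505% to 7.61%). Uncalled values changed sign when 1 library was left out: Mitf with lipid ranged from -0.019 to 0.23, Mitf with lipid in the presence of itaconate from -0.031 to 0.22, and Tcirg1 with itaconate in the presence of lipid from -0.23 to 0.0052 on the log2 scale. The cause was not tested. With no filter 46 of the 53 calls were kept. Atp6v0e2 is limited by its depth, at under 1 CPM in every library without lipid, and the low levels of Mitf and Ctss widen their intervals.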

Other observations

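Of the 25 lysosomal hydrolases outside the 50 genes, 12 rose and 3 fell with lipid, and 12 rose and 2 fell when itaconate was present (60.0% and 56.0% called, against 47.5% and 47.0% of all genes). The examples here were picked after their values were seen and do not stand for the list. Sgsh, a sulfamidase, went from 11.0 ± 0.493 CPM in untreated cells to 16.7 ± 2.09 CPM with lipid (mean ± SD, n = 4 libraries; log2 fold change 0.60 ± 0.09, edgeR adjusted p = 0.00011). Ids, iduronate sulfatase, rose by 0.48 ± 0.08 and Idua, iduronidase, by 0.39 ± 0.12 (adjusted p = 0.00013 and 0.013). Naglu rose by 0.18 ± 0.05 (adjusted p = 0.0058), and all 4 also rose with lipid when itaconate was present, by 0.64, 0.67, 0.54 and 0.32. Hgsnat rose by 0.22 with lipid alone and was at 0.07, not called, with itaconate present.

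Of the 14 autophagy genes, 8 fell and 3 rose with lipid (78.6% called), and 4 fell and 2 rose with itaconate present (42.9% called, against 47.5% and 47.0% of all genes), a difference that was not tested. The examples were likewise picked after their values were seen. Map1lc3b, which codes for LC3B, went from 198 ± 6.91 CPM to 156 ± 18.0 CPM with lipid (-0.35 ± 0.06, edgeR adjusted p = 8.9e-05; -0.18 with itaconate present). Gabarap, Gabarapl1 and Gabarapl2, of the same ubiquitin-like family, fell by -0.28, -0.25 and -0.14 with lipid alone, and with itaconate present Gabarap was called at -0.17 and the other two were not, at -0.17 and -0.08. Map1lc3a rose by 0.14 and 0.16. Of the 14 genes Atg7 had the highest log2 fold change in both settings, at 0.31 and 0.37. Becn1, of the lipid kinase complex that starts autophagosomes, fell by -0.25 and -0.22. Sqstm1, the cargo receptor p62, was at 2580.5 ± 53.8 CPM in untreated cells and 2491 ± 154 CPM with lipid and was not called (adjusted p = 0.34).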
